A study of Bos grunniens x Bos taurus and Bos grunniens with 6 samples.

Results

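The 10 genes described here make up the oxygen-sensing pathway that centres on the hypoxia-inducible factors (HIFs): EPAS1, HIF1A, HIF3A, ARNT, EGLN1, EGLN2, EGLN3, VHL, HIF1AN and VEGFA. They were found by their symbols, regardless of case, in a table of 18918 genes, and each symbol stood on 1 gene, so that all 10 members were represented. RNA-seq was carried out on testis tissue of 3 cattle-yak (C1, C2 and C3; Gannan x Jersey hybrids, F1 males of a Jersey bull and a Gannan yak cow) and 3 Gannan yak males (Y1, Y2 and Y3), all 4 years old, with 1 library per animal. F1 cattle-yak males are sterile, and the comparison addresses how their testis differs from that of the fertile parent species. Each group was sampled in its own county, and the study's methods give castration for cattle-yak and euthanasia for yak where the labels give castration for all, so place, way of sampling and genotype cannot be told apart. The yak genome was the reference for both groups, and its effect on transcripts of the cattle alleles was not tested. No altitude or oxygen measurement was used here.

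As background, a HIF is a pair of an oxygen-labile alpha subunit (HIF1A, EPAS1 or HIF3A) and the stable beta subunit ARNT. With oxygen present, the prolyl hydroxylases EGLN1, EGLN2 and EGLN3 mark the alpha subunit, VHL recognises the mark and the subunit is degraded, while the asparaginyl hydroxylase HIF1AN blocks its contact with co-activators. With little oxygen the pair binds DNA and raises genes such as VEGFA, the growth factor of blood vessels. EPAS1 and EGLN1 are known from studies of adaptation to high altitude, and the yak lives on the Qinghai-Tibet Plateau. The RNA level of an alpha subunit gives neither the amount of its protein nor the activity of the pathway, because the step controlled by oxygen acts on the protein.

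The values are FPKM, fragments scaled by the length of the gene model and the depth of the library. They rest on 11175100 to 11834987 fragments on genes in cattle-yak and 12991641 to 13136129 in yak, so that 1 fragment on 1000 bases stood for 0.0761 to 0.0895 FPKM. The groups were compared with limma on log2 (FPKM + 1) over the 15042 genes whose mean reached 0.5 FPKM, and a gene was called when its Benjamini-Hochberg adjusted p was under 0.05 and its log2 (foldchange), cattle-yak minus yak, was beyond 1 in either direction. Of all genes tested, 54.2% were called, with 33.4% called higher and 20.8% called lower, and the median log2 (foldchange) was 0.51. In 84.1% of the genes tested the FPKM of the groups did not overlap. The tissue expressed testis genes in both groups, and the groups differed in markers of its cells: the summed FPKM of 5 spermatid markers lay between 15.0 and 75.3 in cattle-yak but between 8102 and 9911 in yak, and that of 9 Sertoli cell markers between 2453 and 2617 and between 498 and 563. In whole tissue, a change in the share of a cell type and a change in RNA per cell cannot be told apart, which holds for every gene below.

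All 10 members were tested, and all had an adjusted p under 0.05, as had 81.9% of all genes tested. In all 10 the groups did not overlap, as in 84.1% of all genes tested. Of these, 6 were called higher in cattle-yak (EPAS1, HIF1A, HIF3A, EGLN1, VHL and VEGFA), 2 were called lower (EGLN2 and EGLN3), and ARNT and HIF1AN stayed under the fold threshold. The median log2 (foldchange) of the members was 1.36. Since 54.2% of all genes were called, the count of members by itself says little, and the sizes and directions of the single genes carry the description.

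**Figure D1:**
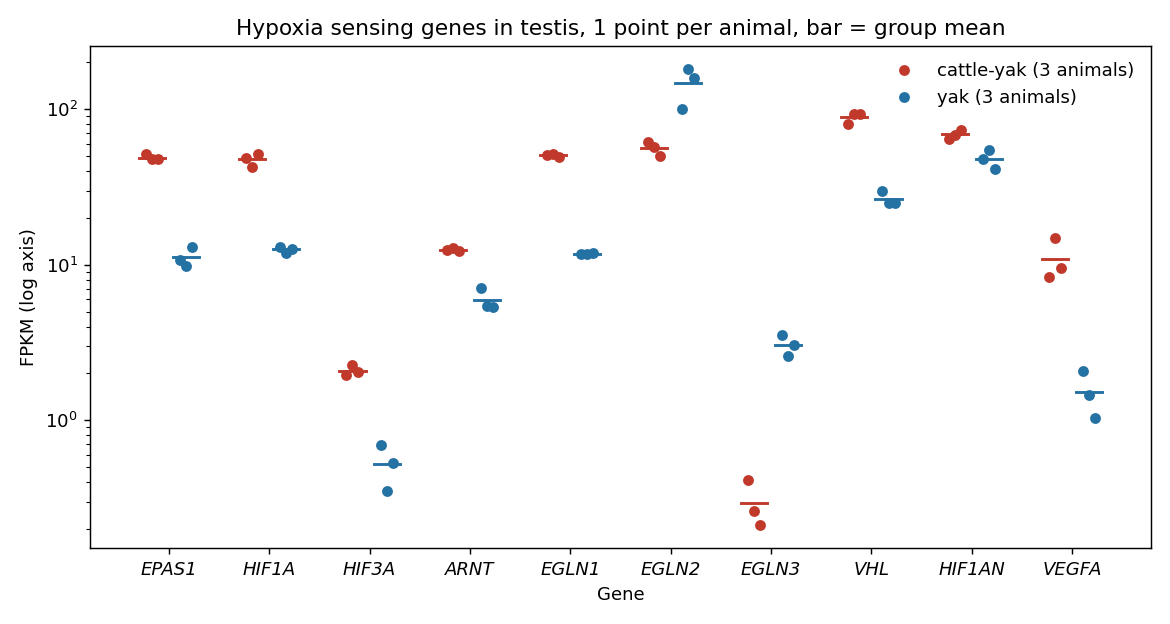
FPKM on a log axis of the 10 hypoxia sensing genes in testis of 3 cattle-yak (red) and 3 yak (blue), with 1 point per animal and a bar at the group mean. The points of the groups do not overlap for any gene, and EGLN2 and EGLN3 are the genes with higher values in yak.

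The alpha subunits EPAS1 and HIF1A stood at nearly the same level as each other in both groups, and both were about 4-fold higher in cattle-yak. EPAS1 (endothelial PAS domain protein 1, also called HIF-2 alpha; ENSBGRG00000006847) had 51.2, 47.9 and 47.5 FPKM in C1, C2 and C3, and 10.7, 9.84 and 13.0 in Y1, Y2 and Y3. The lowest cattle-yak animal thus lay far above the highest yak animal. The means were 48.9 ± 2.01 and 11.2 ± 1.65 FPKM (SD, n = 3 each), a 4.37-fold difference. The log2 (foldchange) was 2.04 (standard error 0.12, limma adjusted p = 1.8e-06), larger than that of 93.0% of the genes tested.

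HIF1A (hypoxia inducible factor 1 subunit alpha; ENSBGRG00000009388) had 48.7, 42.5 and 51.9 FPKM in C1, C2 and C3, and 13.1, 11.8 and 12.7 in Y1, Y2 and Y3. The spread among the animals of a group was small beside the gap between the groups. The means of 47.7 ± 4.77 and 12.5 ± 0.63 FPKM (SD, n = 3 each) differed 3.81-fold, with a log2 (foldchange) of 1.84 (standard error 0.11, limma adjusted p = 1.9e-06). Ranked among all 18918 genes of its own library, which does not depend on scaling by a constant, HIF1A moved from the percentiles 64.3 to 65.3 in yak to 84.8 to 87.5 in cattle-yak. EPAS1 moved in the same way, from 61.0 to 65.0 in yak to 86.4 to 87.2 in cattle-yak.

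The balance between these alpha subunits was not shown to differ. The log2 ratio of EPAS1 to HIF1A within a library was 0.073, 0.17 and −0.13 in C1, C2 and C3 and −0.29, −0.27 and 0.038 in Y1, Y2 and Y3. The groups overlapped, and the means of 0.040 ± 0.15 and −0.17 ± 0.18 (SD, n = 3 each) differed by 0.21 (exact permutation test, two-sided, p = 0.2). With 3 animals against 3 this test cannot go below 0.1.

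HIF3A (hypoxia inducible factor 3 subunit alpha; ENSBGRG00000018647), the least studied alpha subunit, some forms of which restrain the others, was the scarcest of the alpha subunits in both groups. It had 1.96, 2.25 and 2.04 FPKM in the cattle-yak animals C1 to C3 and 0.70, 0.35 and 0.53 in Y1 to Y3, which rest on 61 to 66 fragments per library in cattle-yak and on 12 to 24 in yak. The means of 2.08 ± 0.15 and 0.52 ± 0.17 FPKM (SD, n = 3 each) differed 3.97-fold. On the log2 (FPKM + 1) scale, which understates the change of such low values, the log2 (foldchange) was 1.02 (standard error 0.16, limma adjusted p = 3.6e-04). This value sat at the threshold: the call was lost without C2 (0.98), without Y2 (0.94) and with median-of-ratios scaling (0.71). It was also lost with libraries centred on endothelial markers (0.43, limma adjusted p = 0.17). In contrast, limma with voom weights on whole fragments gave 2.01.

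ARNT (aryl hydrocarbon receptor nuclear translocator; ENSBGRG00000001283), the beta subunit, differed less than the alpha subunits. It had 12.4, 12.8 and 12.2 FPKM in C1, C2 and C3 and 7.10, 5.43 and 5.37 in Y1, Y2 and Y3. Y1 was the highest yak animal, but all yak values lay under all cattle-yak values. The means were 12.5 ± 0.33 and 5.97 ± 0.98 FPKM (SD, n = 3 each), a 2.09-fold difference, and the log2 (foldchange) of 0.96 (standard error 0.14, limma adjusted p = 2.6e-04) stayed just under 1. It passed 1 without Y1 (1.08) and with voom weights on whole fragments (1.08). With median-of-ratios scaling it was smaller, at 0.41. ARNT2, the beta subunit best known from nervous tissue, had 2.39 ± 0.47 FPKM in the hybrids and 2.95 ± 0.81 in yak (SD, n = 3 each), a difference that did not pass the test (log2 (foldchange) −0.21, limma adjusted p = 0.341).

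The prolyl hydroxylases moved in opposite directions. EGLN1 (egl-9 family hypoxia inducible factor 1, also called PHD2; ENSBGRG00000018605), the main oxygen sensor of most tissues, had 50.9, 51.5 and 49.1 FPKM in C1, C2 and C3 and 11.7, 11.7 and 11.9 in Y1, Y2 and Y3. The animals of a group differed little from each other. The means of 50.5 ± 1.24 and 11.8 ± 0.15 FPKM (SD, n = 3 each) differed 4.29-fold, and the log2 (foldchange) was 2.01 (standard error 0.093, limma adjusted p = 5.3e-07), the smallest adjusted p among the members.

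EGLN2 (also called PHD1; ENSBGRG00000015440), a hydroxylase found mainly in the nucleus, was the most abundant member in yak and fell in cattle-yak. Its FPKM was 101, 182 and 159 in Y1, Y2 and Y3, and 61.3, 57.6 and 49.9 in C1, C2 and C3. Y1 stood apart from the other yak animals on the side of the cattle-yak values, and the groups still did not overlap. The means of 147 ± 41.7 FPKM in yak and 56.3 ± 5.82 in the hybrids (SD, n = 3 each) differed 2.62-fold, with a log2 (foldchange) of −1.34 (standard error 0.21, limma adjusted p = 3.7e-04). With an animal left out in turn it ranged from −1.59 without Y1 to −1.16 without Y2.

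EGLN3 (also called PHD3; ENSBGRG00000009029), a hydroxylase whose own gene is known as a HIF target, was the scarcest member in cattle-yak. It had 0.41, 0.26 and 0.21 FPKM in C1, C2 and C3, from 10, 6 and 5 fragments, and 3.53, 2.57 and 3.05 in Y1, Y2 and Y3, from 95, 69 and 81 fragments. The means of 0.30 ± 0.11 and 3.05 ± 0.48 FPKM (SD, n = 3 each) differed 10.3-fold, the largest ratio among the members. The log2 (foldchange) of −1.64 (standard error 0.16, limma adjusted p = 2.6e-05) understated this through the pseudocount, and limma with voom weights on the fragments gave −3.31.

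Within a library, where scaling plays no part, the make-up of the hydroxylase RNA differed between the groups. EGLN2 held 54.4%, 52.6% and 50.3% of the summed FPKM of the 3 genes in C1, C2 and C3, and 86.9%, 92.7% and 91.4% in Y1, Y2 and Y3. EGLN1 held at least 45.2% and at most 49.5% in the hybrids, but 5.94% to 10.1% in yak. The share of EGLN3 lay between 0.21% and 0.37% in the hybrids and between 1.31% and 3.04% in yak. The mean share of EGLN2 was 52.5% ± 2.09 in cattle-yak and 90.3% ± 3.06 in yak, a difference of −37.9 percentage points (SD, n = 3 each; exact permutation test, two-sided, p = 0.1, the smallest possible).

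**Figure D2:**
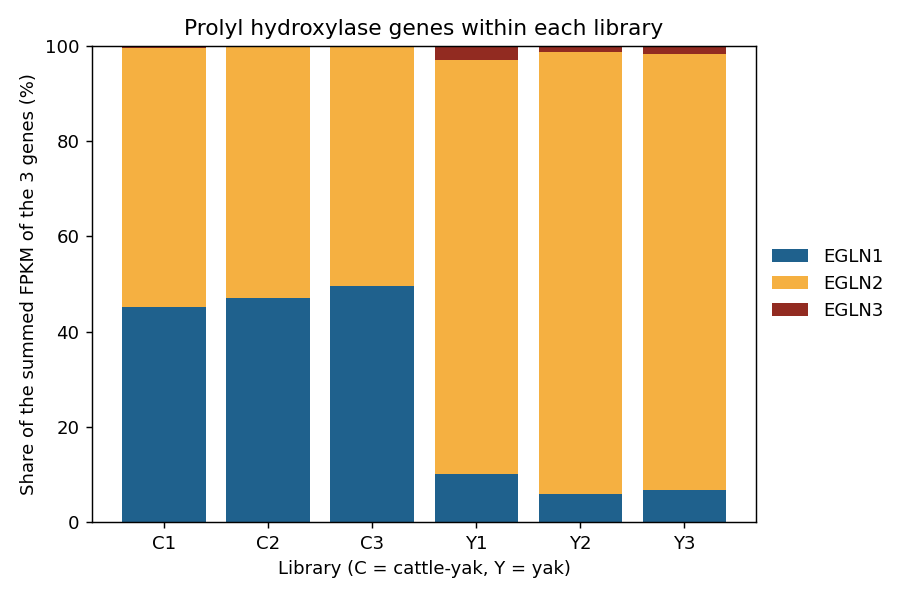
Share in percent of EGLN1, EGLN2 and EGLN3 in the summed FPKM of these 3 genes, 1 bar per library (C = cattle-yak, Y = yak). EGLN2 takes 50.3% to 54.4% of the bar in cattle-yak and 86.9% to 92.7% in yak, and EGLN1 takes nearly all of the rest.

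EGLN2 thus exceeded EGLN1 by 1.02 to 1.20 times in the cattle-yak libraries and by 8.64 to 15.6 times in the yak libraries. The summed FPKM of the hydroxylases was 107 ± 6.98 in cattle-yak and 162 ± 41.3 in yak, while that of the alpha subunits was 98.7 ± 5.20 and 24.3 ± 2.12 (SD, n = 3 each). The ratio of the hydroxylase sum to the alpha sum was 1.11, 1.18 and 0.98 in C1, C2 and C3 and 4.75, 8.92 and 6.63 in Y1, Y2 and Y3. In each of these sums and ratios the groups were apart (exact permutation test, two-sided, p = 0.1 for each, 0.114 after Benjamini-Hochberg adjustment over the 8 quantities compared). The sums, unlike the ratios, depend on the scaling between libraries. For the hydroxylase sum the groups were barely apart, with 113 FPKM in C1 and 116 in Y1.

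VHL (von Hippel-Lindau tumour suppressor; ENSBGRG00000013641), the part of a ubiquitin ligase that recognises hydroxylated alpha subunits, was the most abundant member in cattle-yak. It had 80.1, 93.1 and 93.5 FPKM in C1, C2 and C3 and 29.7, 25.0 and 25.1 in Y1, Y2 and Y3. The cattle-yak values were all more than double any yak value. The means of 88.9 ± 7.63 and 26.6 ± 2.69 FPKM (SD, n = 3 each) differed 3.34-fold, with a log2 (foldchange) of 1.70 (standard error 0.11, limma adjusted p = 2.9e-06). Its gene model held 576 bases, the shortest of the members, whose models reached 4704 bases in ARNT, so its level beside the other members depends on a short model more than its difference between the groups does.

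The other subunits of this ligase did not move as a unit. ELOC (elongin C) rose from 86.2 ± 4.42 FPKM in yak to 204 ± 19.8 in cattle-yak (SD, n = 3 each; log2 (foldchange) 1.23, limma adjusted p = 9.7e-06). ELOB (elongin B) had 482 ± 21.8 FPKM in the hybrids and 726 ± 62.7 in yak (SD, n = 3 each), which gave −0.59 (limma adjusted p = 7.0e-04) and so no call. RBX1, the ring finger subunit, had 35.8 ± 2.96 and 18.5 ± 2.01 FPKM (SD, n = 3 each) and 0.92 (limma adjusted p = 1.3e-04), also without a call. Each of these 3 symbols stood on more than 1 gene, the most abundant gene is given, and the split of reads among the copies makes the values uncertain. CUL2, the scaffold of the ligase, was not analysed here.

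HIF1AN (hypoxia inducible factor 1 subunit alpha inhibitor, also called FIH; ENSBGRG00000024908) had the smallest difference of the members. Its FPKM was 64.8, 68.4 and 73.9 in C1, C2 and C3 and 48.1, 54.6 and 41.3 in Y1, Y2 and Y3. The highest yak animal came within about 10 FPKM of the lowest cattle-yak animal. The means of 69.0 ± 4.59 and 48.0 ± 6.65 FPKM (SD, n = 3 each) gave a log2 (foldchange) of 0.52 (standard error 0.12, limma adjusted p = 3.8e-03), close to the median of all genes tested, and with median-of-ratios scaling it was −0.09.

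VEGFA (vascular endothelial growth factor A; ENSBGRG00000010227), a target and output of the pathway, had the largest increase among the members. It had 8.28, 14.8 and 9.57 FPKM in C1, C2 and C3, and 2.09, 1.45 and 1.04 in Y1, Y2 and Y3. C2 was the highest animal of its group, and the lowest cattle-yak value was several times the highest yak value. The means of 10.9 ± 3.45 and 1.53 ± 0.53 FPKM (SD, n = 3 each) differed 7.13-fold. The log2 (foldchange) was 2.22 (standard error 0.24, limma adjusted p = 4.5e-05), larger than that of 95.4% of the genes tested, and 1.99 without C2.

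The other ligands of the family and their receptors were also mostly higher in cattle-yak. Of 9 genes listed, 8 were tested, 6 were called higher and 0 lower, against the backgrounds of 33.4% and 20.8%, and the median log2 (foldchange) was 1.26. NRP1 was not analysed here. VEGFC, a ligand of lymphatic vessels, had 35.9 ± 3.63 FPKM in the hybrids and 7.85 ± 1.73 in yak (SD, n = 3 each; log2 (foldchange) 2.07, limma adjusted p = 6.4e-06). VEGFB had 14.9 ± 1.64 and 4.01 ± 0.27 FPKM (SD, n = 3 each; 1.66, limma adjusted p = 8.7e-06). VEGFD passed the fold threshold only just, with 1.94 ± 0.86 and 0.43 ± 0.0025 FPKM (SD, n = 3 each; 1.002, limma adjusted p = 2.8e-03). With a minimum mean of 5 FPKM, 3 genes of the list were called higher, against 3908 of all 10782 genes then tested.

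Of the receptors, KDR, FLT4 and NRP2 were called higher and FLT1 was not called. FLT4, with 2.49 ± 0.39 FPKM in the hybrids and 0.52 ± 0.11 in yak, had a log2 (foldchange) of 1.19 (limma adjusted p = 1.5e-04). NRP2, with 4.22 ± 0.62 and 1.10 ± 0.34 FPKM, had 1.32 (limma adjusted p = 1.8e-04; SD, n = 3 each for both genes). KDR (VEGF receptor 2), the main signalling receptor of VEGFA, rose from 4.92 ± 1.28 FPKM in yak to 14.1 ± 3.26 in cattle-yak (SD, n = 3 each; log2 (foldchange) 1.35, limma adjusted p = 4.9e-04). FLT1 (VEGF receptor 1), a decoy for VEGFA, had 1.07 ± 0.28 and 0.66 ± 0.25 FPKM (SD, n = 3 each), and its difference did not pass the test (0.33, limma adjusted p = 0.131). FLT1 stood on 2 genes, of which the more abundant is given. With median-of-ratios scaling 2 genes of this list were called higher and 0 lower, against 2655 and 4173 of all 15042 genes tested.

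Markers of blood vessels moved with this group of genes only in part. Of 7 endothelial markers 4 were called higher (CDH5, CLDN5, EMCN and TIE1) and 1 lower (VWF), with a median log2 (foldchange) of 1.13, and none was at 0 in any library. Their summed FPKM lay between 38.7 and 54.9 in cattle-yak, above the 31.0 to 37.3 of yak. Centred on this list, the log2 (foldchange) was 1.63 for VEGFA and 1.45 for EPAS1, both still called. The mean of all 7 markers was used for this, and VWF (−1.85) made the shift smaller than the median of the list. Centring without VWF was not tried. The part of vessel cells in the levels of VEGFA, EPAS1 and KDR was not tested.

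The members can be ordered by level, since FPKM are per length, but the order depends on the gene models. The shortest models were those of VHL (576 bases) and HIF1AN (1050 bases), so their places are less certain. In yak the order was EGLN2, HIF1AN, VHL, HIF1A, EGLN1, EPAS1, ARNT, EGLN3, VEGFA and HIF3A, from 147 to 0.52 FPKM. In this order HIF1A, EGLN1 and EPAS1 could not be told from their neighbours among these 3, since their animals overlapped. In cattle-yak the order was VHL, HIF1AN, EGLN2, EGLN1, EPAS1, HIF1A, ARNT, VEGFA, HIF3A and EGLN3, from 88.9 to 0.30 FPKM. There EGLN2, EGLN1, EPAS1 and HIF1A overlapped each with the next, as did ARNT and VEGFA. EGLN2 moved from the first to the third place and EGLN3 to the last.

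The list of partners and regulators of HIF, the ligase subunits included, held 14 genes, of which 13 were tested, 5 called higher (38.5%, background 33.4%) and 0 lower (background 20.8%). The median log2 (foldchange) of 0.63 lay near the median of all genes. CITED2, a HIF target that competes with HIF for its co-activators, had the largest change, with 69.2 ± 7.53 FPKM in the hybrids and 12.1 ± 0.75 in yak (SD, n = 3 each; log2 (foldchange) 2.42, limma adjusted p = 6.0e-07). EP300, a co-activator, had 54.2 ± 4.71 and 17.0 ± 1.001 FPKM (1.61, limma adjusted p = 2.9e-06), and HSP90AB1, a chaperone, 634 ± 91.7 and 212 ± 11.8 (1.57, limma adjusted p = 6.4e-06; SD, n = 3 each for both genes). The related co-activator CREBBP was not called, with 12.1 ± 1.28 and 7.44 ± 0.85 FPKM (SD, n = 3 each). The remaining called genes were ELOC and SIAH1, a ubiquitin ligase that acts on the hydroxylases, whose symbol stood on 4 genes. With median-of-ratios scaling 2 genes of this list were called higher and 1 lower, against 2655 and 4173 of all 15042 genes tested.

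Genes known as HIF targets from other tissues did not share a direction. Of 30 genes listed, 28 were tested, 15 were called higher (53.6%, background 33.4%), 4 lower (14.3%, background 20.8%) and 9 not called. The median log2 (foldchange) was 1.10, against 0.51 over all genes tested. With median-of-ratios scaling 8 were called higher and 5 lower, against 2655 and 4173 of all 15042 genes tested. LDHA was not analysed here, and EPO lay under the minimum, at 0.24 FPKM or less in every library.

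The largest increases were those of TFRC, NDRG1 and DDIT4. TFRC, the receptor that takes up iron-loaded transferrin, had 42.3 ± 1.28 FPKM in the hybrids and 4.47 ± 0.93 in yak (SD, n = 3 each; log2 (foldchange) 2.998, limma adjusted p = 6.3e-07). NDRG1, a stress-responsive gene, had 63.9 ± 5.61 and 8.44 ± 2.36 FPKM (2.81, limma adjusted p = 2.2e-06), and DDIT4, an inhibitor of mTOR signalling, 109 ± 15.5 and 16.1 ± 1.89 (2.69, limma adjusted p = 7.5e-07; SD, n = 3 each for both genes).

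The genes called lower were CA9, CA12, PDK1 and CXCR4. CA9, a carbonic anhydrase often read as a marker of hypoxia, had 11.3, 5.40 and 2.78 FPKM in C1, C2 and C3 and 73.2, 77.4 and 65.9 in Y1, Y2 and Y3. The cattle-yak animals differed several-fold among themselves, yet all lay far under the yak animals (log2 (foldchange) −3.45, standard error 0.36, limma adjusted p = 3.8e-05). CA12, another carbonic anhydrase, had 0.12 ± 0.054 FPKM in the hybrids and 9.17 ± 1.71 in yak (SD, n = 3 each; −3.17, limma adjusted p = 1.1e-06). PDK1, the kinase that shuts pyruvate dehydrogenase, had 34.4 ± 3.97 and 181 ± 15.6 FPKM (SD, n = 3 each; −2.37, limma adjusted p = 6.5e-07). CXCR4, a chemokine receptor named here after its values were seen, had −1.44 (limma adjusted p = 7.0e-05).

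**Figure D3:**
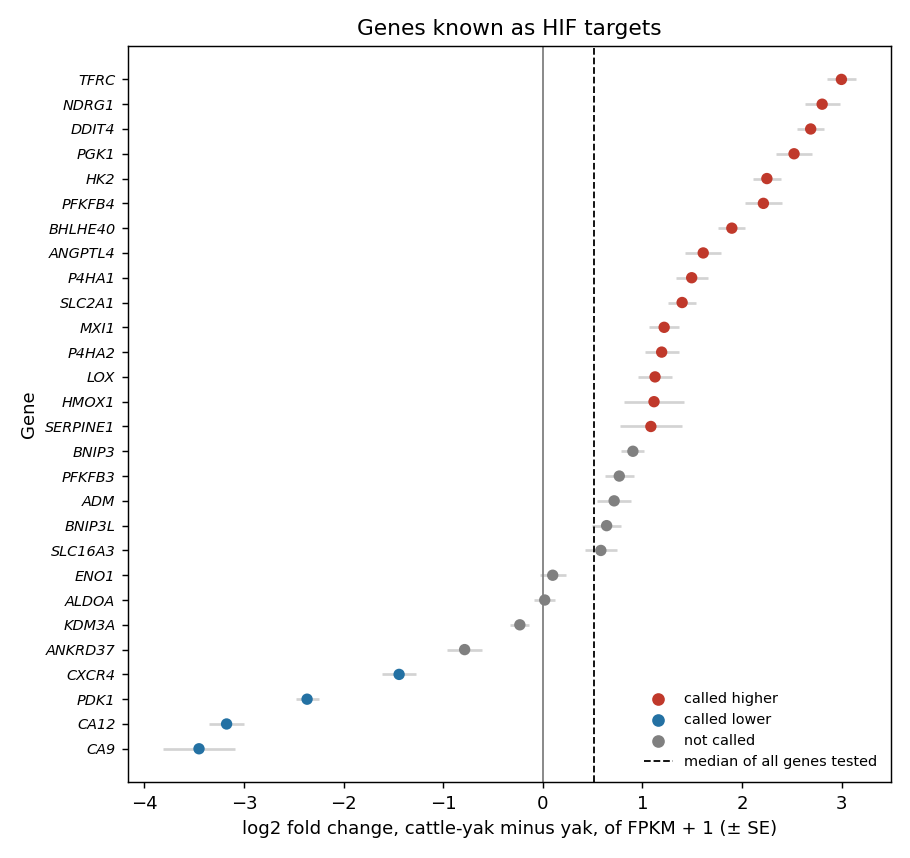
Log2 (foldchange), cattle-yak minus yak, on log2 (FPKM + 1), with the standard error, of the 28 tested genes of the HIF target list, in order of size. Red points were called higher (15), blue points lower (4) and grey points not called (9), and the dashed line marks the median of all genes tested, 0.51.

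Genes of glycolysis in the target list were not all called. HK2 (2.25), PFKFB4 (2.22) and PGK1 (2.52), which act in or control glycolysis, were called higher, while ALDOA had 308 ± 24.7 FPKM in the hybrids and 304 ± 25.1 in yak (log2 (foldchange) 0.02) and ENO1 had 174 ± 24.4 and 162 ± 16.8 (0.10; SD, n = 3 each). SLC2A1, a glucose transporter, was called higher with 1.40. These 6 genes were named after their values were seen.

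The annotation in the table gave a wider view. The KEGG pathway HIF-1 signaling was attached to 7 members (ARNT, EGLN1, EGLN2, EGLN3, HIF1A, VEGFA and VHL) and to 104 other genes, of which 92 were tested, 45 called higher (48.9%, background 33.4%) and 12 lower (13.0%, background 20.8%), with a median log2 (foldchange) of 0.92. With median-of-ratios scaling 27 of them were called higher and 16 lower, with centring on the endothelium list 25 and 16, and with centring on the Sertoli list 0 and 54. The GO term response to hypoxia was attached to 7 members (EGLN2, EGLN3, EPAS1, HIF1A, HIF3A, VEGFA and VHL) and to 63 other genes, of which 55 were tested, 24 called higher (43.6%, background 33.4%) and 7 lower (12.7%, background 20.8%), with a median of 0.64. The counts were 16 and 10 with median-of-ratios scaling, 14 and 12 with endothelium centring, and 0 and 33 with Sertoli centring. The background moved as well: of all 15042 genes tested, median-of-ratios scaling called 2655 higher and 4173 lower. Endothelium centring called 2389 and 4399 of them, and Sertoli centring 28 and 11210. The summed FPKM of the annotated genes lay between 4865 and 5018 in the hybrids and between 5214 and 5496 in yak for the pathway, and 3022 to 3071 and 2152 to 2292 for the term. Such sums rest mostly on abundant genes. In the pathway these went both ways, as PGK2 (means of 38.4 in the hybrids and 909 in yak) and the more abundant GAPDH gene (658 and 115). In the term HSP90B1 had 1503 and 963. HIF1AN carried neither annotation. Genes that share a symbol were each counted under both annotations.

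The genes whose profiles were most like EPAS1 over the 6 libraries, by the root mean square distance of log2 (FPKM + 1) after centring each gene on its mean, were CERS2 (distance 0.038), MAGT1 (0.058) and MTARC2 (0.062). Those of HIF1A were PI15 (0.041), LPAR2 (0.042) and DNAJC30 (0.043), and those of VEGFA were FOXS1 (0.088), COL6A2 (0.11) and ADCY5 (0.11). Such profiles were common for the alpha subunits, with 799 genes within 0.2 of EPAS1 and 951 within 0.2 of HIF1A, and rarer for VEGFA, with 55. The distance mainly reflects the difference between the groups, and the pseudocount shrinks the change of low values. PI15 had 2.93 ± 0.39 FPKM in the hybrids and only 0.087 ± 0.00051 in yak (SD, n = 3 each). ADCY5 had 7.81 ± 1.56 and 0.75 ± 0.35 FPKM (SD, n = 3 each).

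The size of every difference depends on what the libraries are scaled to. With median-of-ratios scaling, after which the all-gene median was 0.01, EPAS1 had a log2 (foldchange) of 1.45, EGLN1 1.42, HIF1A 1.25, VHL 1.10 and VEGFA 1.74, all still called higher. EGLN2 had −1.95 and EGLN3 −1.94 with that scaling, both called lower. When each library was centred on the 9 Sertoli markers, all of which were called higher (median 2.24, none at 0), every member was below 0. VEGFA, EPAS1 and EGLN1 then had −0.04, −0.22 and −0.25, HIF1A and VHL −0.41 and −0.55, and EGLN2 and EGLN3 −3.59 and −3.90. With this centring 0 genes of the partner list were called higher and 10 lower, and of the VEGF list 0 and 4. Of all 15042 genes tested it called 28 higher and 11210 lower.

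**Figure D4:**
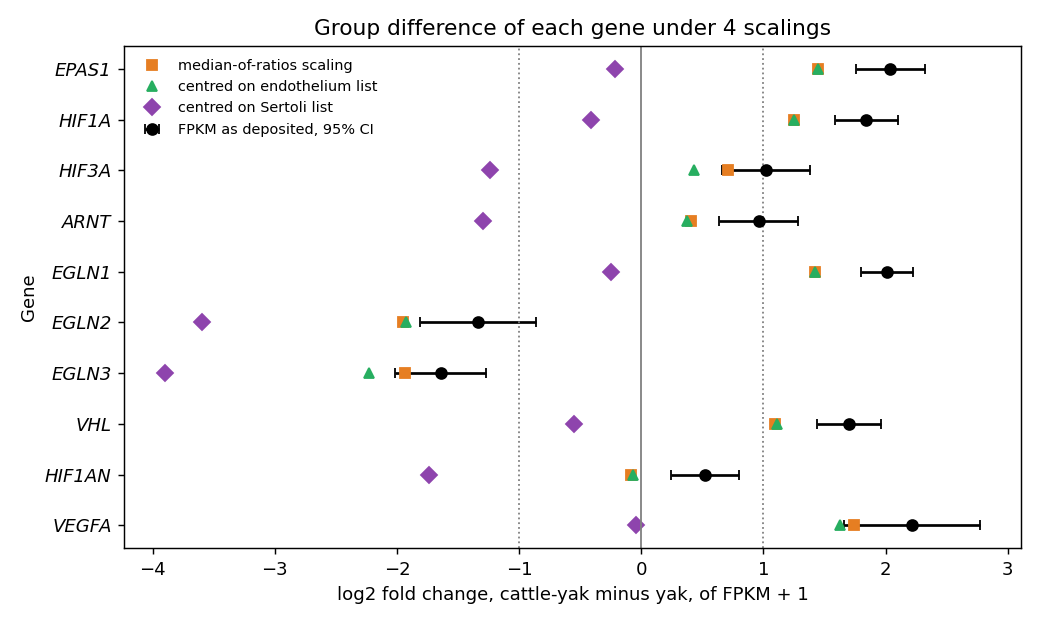
Log2 (foldchange), cattle-yak minus yak, on log2 (FPKM + 1), of each member with FPKM as deposited (black, with the 95% confidence interval), with median-of-ratios scaling (orange), and with each library centred on the endothelium list (green) or the Sertoli list (purple). Dotted lines mark the threshold of 1 in each direction, EGLN2 and EGLN3 lie below 0 under all 4 scalings, and the members higher in the deposited FPKM fall to between −1.74 and −0.04 when centred on the Sertoli list.

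Markers of the other cell types moved in different directions. The 5 Leydig markers measured were all called higher (median log2 (foldchange) 2.05, summed FPKM from 10413 to 12397 in the hybrids, from 3333 to 4856 in yak), as were the 5 myoid markers (1.92, 560 to 755 and 114 to 141). Of 5 macrophage markers 2 were called higher and 2 lower (37.1 to 50.3 and 93.1 to 105 FPKM in sum), and of 6 spermatocyte markers 1 higher and 1 lower (182 to 308 and 357 to 377). All 5 spermatid markers measured were called lower, with a median of −7.89. None of the markers measured was at 0 in any library. The part of these cells in the levels of the members was not tested.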

How the data were processed

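Testis RNA of 3 cattle-yak and 3 yak was sequenced from stranded libraries. Per the study's methods, the authors trimmed reads with Trimmomatic, aligned them to the yak genome LU_Bosgru_v3.0 with HISAT2 and obtained FPKM with Cufflinks, and the deposited FPKM are scaled between libraries by depth alone. Whether counting used strand is not given in the sources used here, so antisense reads cannot be told apart. Columns were assigned by the sample titles. The members and gene lists were chosen with earlier results of these data known.

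Whole fragments and gene lengths were recovered from ratios of FPKM between libraries for 17973 genes, within 0.03 fragments, and the depths for which lengths are whole numbers were taken. Groups were compared two-sided with limma 3.58.1 in R 4.3.3 (lmFit, eBayes with a trend) on log2 (FPKM + 1). Each library is 1 animal. Scripts were tested on simulated data. Within-library ratios and shares, and the summed FPKM, used exact permutation tests (scipy 1.17.1, Python 3.11.15), and figures matplotlib 3.10.9. The other named genes were the HIF ligase subunits, ARNT2, FLT1 and KDR, up to 3 called genes per direction and pathway list with the largest change, and the 3 nearest profiles of EPAS1, HIF1A and VEGFA. Of copies of a symbol the most abundant was taken, except in the KEGG and GO annotation, where each gene was kept. Alternatives were pseudocounts of 0.1 and 0.01, other filters and scalings, no trend, no fold threshold, voom on the fragments and each animal left out, and, added after seeing the data, centring on the Leydig and endothelium lists.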

Additional observations from a re-analysis of the deposited data

How the results depend on the processing

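EGLN2 and EGLN3 were lower, and were called lower wherever they were tested, under every alternative tried. With a minimum mean of 5 FPKM, 1 member was called lower, because EGLN3 was no longer tested. EPAS1, HIF1A, EGLN1, VHL and VEGFA were called higher under every alternative except the centring of libraries on the Sertoli or the Leydig markers. With either of these, 0 members were called higher and 5 lower, and of the HIF target genes 0 higher and 18 lower. Centred on the Sertoli list, the log2 (foldchange) was −0.22 for EPAS1, −0.41 for HIF1A, −1.24 for HIF3A, −1.30 for ARNT, −0.25 for EGLN1, −0.55 for VHL, −1.74 for HIF1AN and −0.040 for VEGFA. Centred on the Leydig list, it was −0.19, −0.39, −1.21, −1.27, −0.22, −0.53, −1.71 and −0.015 for the same genes in the same order. HIF1AN was also below 0 with median-of-ratios scaling (−0.086) and with centring on the endothelium list (−0.067). Of the HIF target genes 8 were called higher with median-of-ratios scaling and 8 when centred on the endothelium list. Over all genes, median-of-ratios scaling turned 5023 higher and 3136 lower calls into 2655 and 4173, Sertoli centring into 28 and 11210, Leydig centring into 28 and 11116, and endothelium centring into 2389 and 4399. With FPKM as deposited, HIF3A and ARNT lay close to the fold threshold, and they crossed it under several alternatives. They were further under it with median-of-ratios scaling (0.71 and 0.41) and with endothelium centring (0.43 and 0.37, limma adjusted p = 0.17 for both). With an animal left out in turn, 5 to 7 members were called higher and 2 lower. Precision is limited by 3 animals per group and, for EGLN3 in cattle-yak, by 5 to 10 fragments per library. Centring lowers every gene by the mean rise of the markers used, and which scaling is apt for whole tissue was not tested.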

Other observations

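Some enzymes of the HIF-1 signaling annotation have a form used by sperm cells and a form used by other cells, and a few such genes were looked at after their values were seen. PGK2, the phosphoglycerate kinase of sperm, had 38.4 ± 29.1 FPKM in the hybrids and 909 ± 16.7 in yak (SD, n = 3 each; log2 (foldchange) −4.83, limma adjusted p = 3.1e-05), while PGK1 had 55.0 ± 8.67 and 8.81 ± 2.06 (2.52, limma adjusted p = 4.2e-06). The symbol PDHA1, a subunit of pyruvate dehydrogenase, stood on 2 genes that moved apart, with 7.14 ± 5.85 and 336 ± 33.3 FPKM for one (−5.72) and 52.4 ± 5.34 and 9.67 ± 0.83 for the other (2.32; SD, n = 3 each). Which of them is which paralog is uncertain. Other enzymes of this annotation went both ways, and they were not sorted here into forms of sperm and of other cells. Among them ENO4 (−2.77), PFKP (−3.27), ENO3 (−2.53) and HKDC1 (−1.83) were called lower, and PFKL (2.08) and ALDOC (1.66) higher.

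Copies of the ligase subunits differed among themselves. The second gene with the symbol ELOB had 23.1 ± 2.14 FPKM in the hybrids and 2.14 ± 0.63 in yak (2.96), and another 0.50 ± 0.34 and 4.38 ± 1.11 (−1.85), while the second gene with the symbol RBX1 had 22.7 ± 4.02 and 2.28 ± 0.72 (2.86; SD, n = 3 each). These symbols are shared by several genes, so that reads may be split among them, and the values are uncertain.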
